A study of Mus musculus with 12 samples.

Results

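Adrenergic and cyclic AMP signalling was followed in mouse heart through 9 genes, chosen by symbol and not by a threshold on their values. They are the receptors Adrb1, Adra1a and Adra1b, the adenylyl cyclases Adcy5 and Adcy6, the receptor kinase Grk5, the phosphodiesterases Pde3a and Pde4d, and Prkaca, a catalytic subunit of protein kinase A. These 9 genes were found among the 17379 genes of the deposited table, and all 9 passed the filter on low counts that left 13849 genes for testing. mRNA was sequenced from the hearts of 12 mice aged 6 months on a C57BL background, with 3 samples in each of 4 groups. The groups were nontransgenic mice (2 males and 1 female), mice homozygous for the 25 bp MYBPC3 deletion MYBPC3Δ25bp (2 males and 1 female), mice heterozygous for the HRC variant HRCS96A (3 females), and compound mice that carried both alterations in those same states (3 females). The labels call the mutant animals transgenic and name no promoter, founder line or littermate origin. Nothing in the labels says that the 3 samples of a group came from separate litters or preparations, so p-values measure only the spread between these samples.

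In heart muscle, noradrenaline and adrenaline bind beta receptors, whose stimulatory G protein switches on membrane adenylyl cyclases, and the cyclic AMP they make activates protein kinase A. That kinase phosphorylates calcium channels, phospholamban, the ryanodine receptor and myofilament proteins, including cardiac myosin-binding protein C, the product of Mybpc3, and so raises the rate and force of the beat. Receptor kinases switch occupied receptors off, phosphodiesterases break cyclic AMP down, and alpha-1 receptors signal through a different G protein to phospholipase C.

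Levels are given as CPM, a library's counts rescaled to a common total, after scaling each library by the trimmed mean of M values, and differences are on the log2 scale. Total counts ran from 15615182 to 20581197 per library, and the 9 genes had between 336 counts (Adrb1) and 7708 counts (Prkaca) in any library. The main test was edgeR's quasi-likelihood test with group and sex as terms over all 12 libraries. Its p-values were adjusted by the Benjamini-Hochberg method over all 13849 genes, and a gene passed at an adjusted p under 0.05. No gene passed in any of the 6 comparisons made here (0%), so the share of genes whose groups do not overlap, and the share with an unadjusted p under 0.05, are given beside the counts of the 9 genes.

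The libraries differed in ways that touch what follows. Summed CPM of 8 heart muscle markers lay between 64173 and 102374 in every library, and 4 summed Y-linked genes matched the labelled sex (111 to 140 CPM in 4 males, 0 to 0.553 CPM in 8 females). Mybpc3 itself had 2464, 2918 and 2532 CPM in the MYBPC3 deletion libraries, below the 3521 to 4885 CPM of the nontransgenic ones, whereas the compound libraries, labelled as homozygous for the same deletion, had 3532 to 3923 CPM. Hrc had 939 to 1375 CPM over all libraries, and neither gene's count shows the altered bases. The median log2 deviation of transcripts longer than 6000 bases, less that of transcripts shorter than 2000 bases, was -0.45 in nontransgenic replicate 1 and -0.65 in MYBPC3 deletion replicate 2, both males, against -0.27 to 0.38 elsewhere. The 15 atrial muscle markers summed to 1672 to 2382 CPM in the compound libraries and 1800 CPM in HRC variant replicate 3, against 6130 to 14429 CPM in the other 8 libraries, and 15 of 15 had lower fitted levels in the compound group than in the nontransgenic group, with Bmp10 at 0 in compound replicate 3. The labels name the tissue as heart and do not say which chambers were taken. In such bulk samples, fewer cells of a type and less RNA per cell cannot be told apart.

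Adrb1, the main beta receptor of heart muscle cells, lies on chromosome 19 at 56722372-56724862 on the plus strand of GRCm38.p6, the build of the deposited table. Its level was 27.5, 29.1 and 37.7 CPM in the nontransgenic libraries, 36.0, 21.3 and 37.2 CPM with the MYBPC3 deletion, 31.4, 38.3 and 38.7 CPM with the HRC variant, and 50.2, 44.3 and 40.5 CPM in the compound group. Every compound library was above every one of the other 9 libraries, while those 3 groups overlapped each other. The share of all genes with that pattern was not computed, and only shares for pairs of groups are given below. The fitted log2 difference of the compound group was 0.27 from nontransgenic (SE 0.21, edgeR adjusted p = 0.929), 0.26 from the MYBPC3 deletion (SE 0.21, edgeR adjusted p = 0.936) and 0.32 from the HRC variant (SE 0.17, edgeR adjusted p = 0.831). These 3 differences share the compound libraries and are not independent. Without the sex term the first was 0.52.

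Adra1a, an alpha-1 receptor of heart muscle cells (chromosome 14, 66635013-66771240, plus strand), varied most of the 9 genes, with a coefficient of variation of 37.1% over the 12 libraries. It had 25.4, 30.1 and 37.2 CPM in the nontransgenic libraries, 48.4, 25.1 and 40.1 CPM with the MYBPC3 deletion, 21.3, 40.1 and 33.7 CPM with the HRC variant, and 71.6, 42.1 and 59.0 CPM in the compound group. The compound libraries were above all nontransgenic and all HRC variant libraries, and overlapped the MYBPC3 deletion group only through that group's replicate 1. Against nontransgenic mice the log2 difference was 0.72 (SE 0.35, 95% interval -0.03 to 1.48, edgeR adjusted p = 0.789). Against the HRC variant, where both groups are female, it was 0.86 (SE 0.28, 95% interval 0.24 to 1.48, unadjusted p = 0.0106, edgeR adjusted p = 0.667). With the atrial level as a covariate these 2 values were 0.71 and 0.85. HRC variant replicate 3, with 1800 CPM of atrial markers against 1672 to 2382 CPM in the compound libraries, had 33.7 CPM of Adra1a. That is 1 library, and the part of atrial content in the Adra1a differences was not tested.

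Adra1b, the second alpha-1 receptor (chromosome 11, 43774605-43901245, minus strand), had 53.4, 52.2 and 52.9 CPM in the nontransgenic libraries, a spread of 0.628 CPM (SD, n = 3). It had 72.3, 31.7 and 67.9 CPM with the MYBPC3 deletion, 47.3, 63.3 and 74.7 CPM with the HRC variant, and 94.2, 79.6 and 55.2 CPM in the compound group. The compound libraries were all above the nontransgenic ones (55.2 CPM at the lowest against 53.4 CPM at the highest) and overlapped both single mutant groups. The log2 difference from nontransgenic was 0.40 (SE 0.36, edgeR adjusted p = 0.960), and it was 0.04 with the atrial level as a covariate. The part of atrial content in this difference was not tested.

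**Figure D1:**
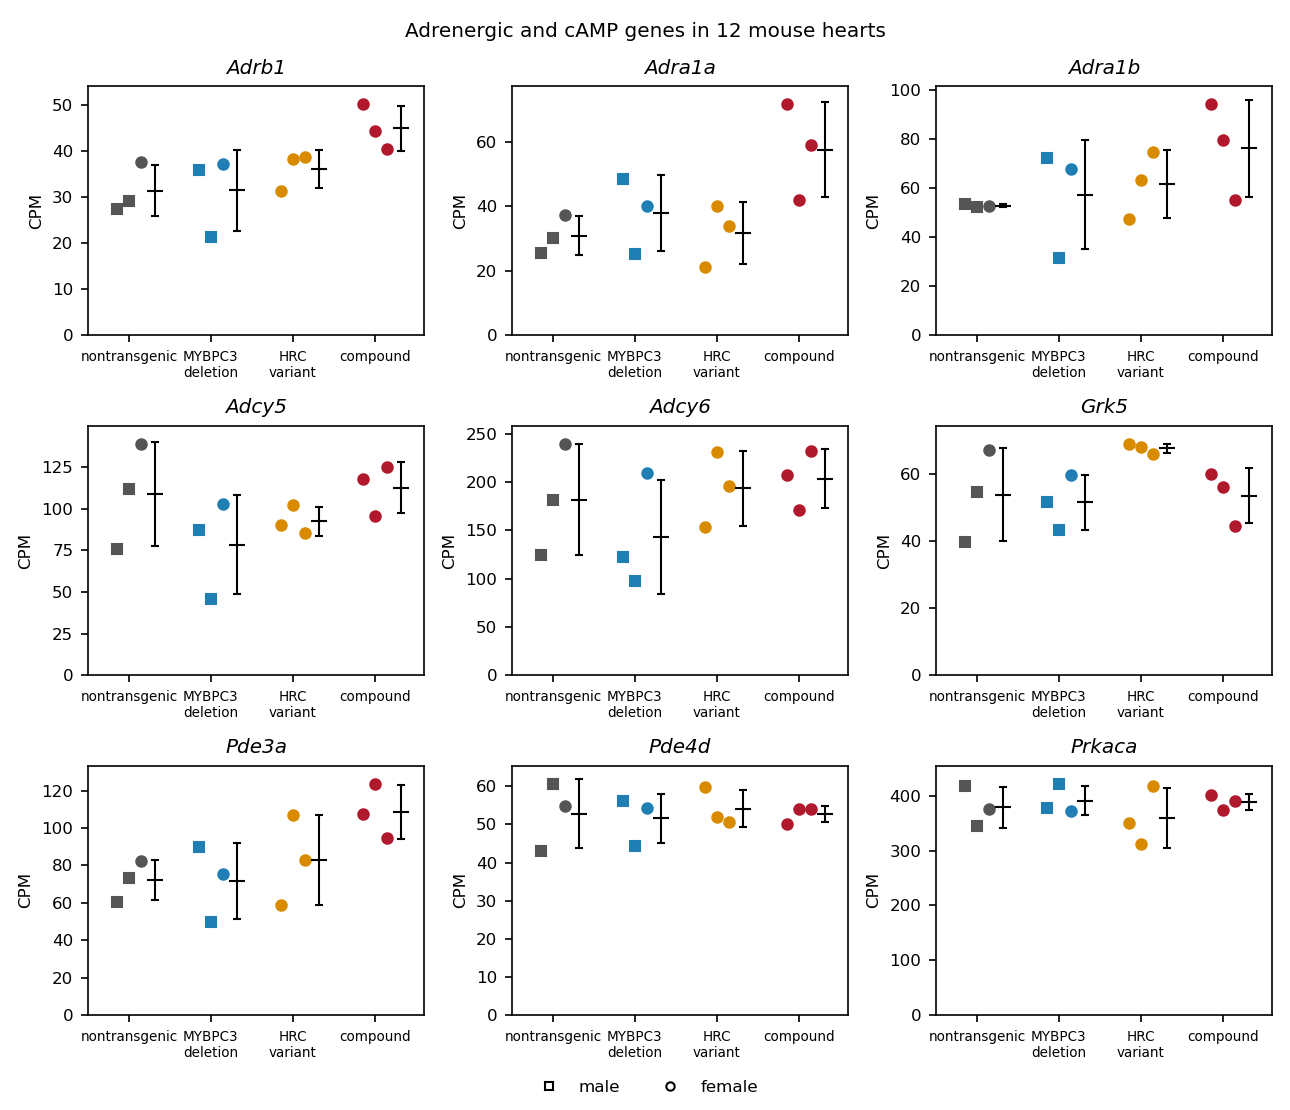
CPM of the 9 genes (vertical axes from 0) in 12 hearts by group, squares for males and circles for females; the bar beside each group is the mean with its SD (n = 3). Adrb1 is above 40 CPM in the 3 compound libraries and at most 38.7 CPM elsewhere, while Prkaca stays between 311 and 421 CPM in all 12.

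A stretch of 250 bases before an annotated start site is shown for the receptors Adrb1 and Adra1b, as 2 genes without overlap between compound and nontransgenic libraries, and for Prkaca, which varied least. The sequences are from RefSeq on GRCm38.p6, which had 8 such windows for 6 of the 9 genes. Adra1b and Prkaca had 2 windows each, and the one nearest the outer start of the deposited gene is shown. They are written 5′ to 3′ on the gene's strand, at chr19:56721867-56722116 (plus) for Adrb1, chr11:43901238-43901487 (minus) for Adra1b and chr8:83972728-83972977 (plus) for Prkaca. Capitals mark TGACG or its reverse complement CGTCA, the core of the cyclic AMP response element that the factor CREB binds.
Adrb1: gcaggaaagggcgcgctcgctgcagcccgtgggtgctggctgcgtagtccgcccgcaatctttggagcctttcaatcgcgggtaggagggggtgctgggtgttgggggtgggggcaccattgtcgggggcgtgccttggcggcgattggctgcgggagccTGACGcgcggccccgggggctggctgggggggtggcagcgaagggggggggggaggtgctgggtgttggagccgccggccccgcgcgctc
Adra1b: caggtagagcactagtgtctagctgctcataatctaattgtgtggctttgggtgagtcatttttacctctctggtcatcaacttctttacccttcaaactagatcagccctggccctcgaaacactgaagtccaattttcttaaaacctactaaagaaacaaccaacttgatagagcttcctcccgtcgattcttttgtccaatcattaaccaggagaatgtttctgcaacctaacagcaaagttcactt
Prkaca: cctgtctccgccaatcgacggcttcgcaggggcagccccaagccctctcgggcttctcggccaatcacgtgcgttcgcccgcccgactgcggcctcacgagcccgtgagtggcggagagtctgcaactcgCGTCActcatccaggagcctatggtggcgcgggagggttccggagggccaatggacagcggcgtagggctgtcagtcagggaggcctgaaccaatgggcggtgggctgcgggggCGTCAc
The Adrb1 window held 1 such match, 90 bases before the start, the Prkaca window shown held 2, and the Adra1b window shown held 0. The second windows of Prkaca and Adra1b, not shown, held 0 each. Of 32851 windows of this length, 17.8% held a match on either strand. The full element TGACGTCA, which contains that core, was in none of these 3 windows and in 1.55% of all windows. A match is a run of letters and not a measured binding site.

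Adcy5 and Adcy6 are the main cyclases of heart muscle cells. Adcy5 (chromosome 16, 35152535-35304549, plus strand) had 76.1, 112 and 139 CPM in the nontransgenic libraries, 87.2, 45.5 and 103 CPM with the MYBPC3 deletion, 90.0, 102 and 85.3 CPM with the HRC variant, and 118, 95.4 and 125 CPM in the compound group. The groups overlapped in every comparison, and the nontransgenic libraries alone ran from 76.1 to 139 CPM. The log2 difference from nontransgenic was -0.48 with the MYBPC3 deletion (SE 0.21, unadjusted p = 0.0438, edgeR adjusted p = 0.597) and -0.61 with the HRC variant (SE 0.26, unadjusted p = 0.0350, edgeR adjusted p = 0.761). In the compound group it was -0.32 (SE 0.26, edgeR adjusted p = 0.934), and its direction turned without the sex term, to 0.05. The interaction subtracts both single-alteration differences from that of the compound group, and was 0.76 (SE 0.30, unadjusted p = 0.0254, edgeR adjusted p = 0.563). Leaving out 1 library moved the MYBPC3 value for Adcy5 to between -0.25 (without replicate 2 of that group) and -0.78 (without its replicate 1), and to -0.31 without nontransgenic replicate 2. The HRC value was -0.23 without the sex term.

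Adcy6 (chromosome 15, 98589978-98610140, minus strand) had 124, 181 and 239 CPM in the nontransgenic libraries, 122, 97.9 and 210 CPM with the MYBPC3 deletion, 153, 231 and 196 CPM with the HRC variant, and 207, 171 and 232 CPM in the compound group. The groups overlapped, and the highest nontransgenic and highest MYBPC3 deletion values were those of each group's only female. Its log2 differences from nontransgenic were -0.38 (SE 0.19), -0.40 (SE 0.23) and -0.33 (SE 0.23) for the MYBPC3 deletion, HRC variant and compound groups, with edgeR adjusted p of 0.644, 0.870 and 0.903. The direction of the last 2 Adcy6 values turned without the sex term, to 0.09 for the HRC variant and 0.16 for the compound group. An exon of Adcy6 overlaps the predicted gene Gm29331 on the opposite strand, and no source used here states whether counting used strand, so reads there cannot be assigned to one of them.

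Grk5, a kinase that phosphorylates agonist-bound receptors (chromosome 19, 60889610-61120945, plus strand), was the one gene lower in the compound group than in the HRC variant group without overlap. It had 69.0, 68.2 and 66.2 CPM with the HRC variant and 60.1, 56.4 and 44.5 CPM in the compound group. The nontransgenic libraries had 39.7, 54.9 and 67.3 CPM and the MYBPC3 deletion libraries 51.7, 43.4 and 59.8 CPM, which overlapped the compound values. The log2 difference between the compound and HRC variant groups, all female, was -0.34 (SE 0.15, unadjusted p = 0.0394, edgeR adjusted p = 0.772).

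Pde3a, which hydrolyses cyclic AMP and is the target of milrinone (chromosome 6, 141249269-141508905, plus strand), had 60.7, 73.4 and 82.4 CPM in the nontransgenic libraries, 90.1, 49.9 and 75.1 CPM with the MYBPC3 deletion, 58.8, 107 and 82.7 CPM with the HRC variant, and 108, 123 and 94.5 CPM in the compound group. All compound libraries were above all nontransgenic and all MYBPC3 deletion libraries, and they overlapped HRC variant replicate 2. The log2 difference was 0.46 from nontransgenic (SE 0.29, edgeR adjusted p = 0.873) and 0.46 from the MYBPC3 deletion (SE 0.29, edgeR adjusted p = 0.914). An exon of Pde3a overlaps the predicted gene Gm28523 on the opposite strand.

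Pde4d, a phosphodiesterase found with beta receptors and with the ryanodine receptor (chromosome 13, 108449681-109955969, plus strand), had 42.9, 60.6 and 54.9 CPM in the nontransgenic libraries and 56.1, 44.3 and 54.4 CPM with the MYBPC3 deletion. With the HRC variant it had 59.7, 52.1 and 50.7 CPM, and in the compound group 50.3, 54.0 and 54.0 CPM. Group means lay between 51.6 and 54.1 CPM, and all groups overlapped. The log2 difference of the compound group from nontransgenic was -0.07, with a 95% interval of -0.44 to 0.31.

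Prkaca (chromosome 8, 83972978-83996444, plus strand) was the steadiest of the 9 genes, with a coefficient of variation of 8.75%. It had 417, 344 and 375 CPM in the nontransgenic libraries, 378, 421 and 373 CPM with the MYBPC3 deletion, 350, 311 and 418 CPM with the HRC variant, and 402, 374 and 390 CPM in the compound group. The groups overlapped throughout. Its log2 difference from nontransgenic was 0.04, -0.04 and 0.08 in the MYBPC3 deletion, HRC variant and compound groups, and the 95% interval of the last was -0.28 to 0.44.

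Counts of the 9 genes were read against the same counts over all genes. Overlap was read from CPM, which carries no sex term. The nontransgenic and MYBPC3 deletion groups each hold 2 males, while the compound group is all female. Those 2 groups also hold both libraries lowest in long transcripts. Sex and group cannot be told apart in the overlap of the compound group with them, and the part of those libraries was not tested. Between compound and nontransgenic mice, 4 of 9 (Adrb1, Adra1a, Adra1b and Pde3a) were higher without overlap, against 8.79% of all genes, and 0 of 9 had an unadjusted p under 0.05, against 6.36%. Between the compound and MYBPC3 deletion groups, 2 of 9 (Adrb1 and Pde3a) were higher without overlap, against 11.5%, and 0 of 9 had an unadjusted p under 0.05, against 5.73%. Between the compound and HRC variant groups, 2 of 9 (Adrb1 and Adra1a) were higher, against 6.20%, and 1 of 9 (Grk5) was lower, against 6.22%. In that comparison 2 of 9 (Adra1a and Grk5) had an unadjusted p under 0.05, against 6.30%.

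Neither single alteration separated any of the 9 genes from nontransgenic mice. With the MYBPC3 deletion 0 of 9 did not overlap, against 10.4% of all genes, and with the HRC variant 0 of 9, against 7.94%. An unadjusted p under 0.05 was found for 1 of 9 in each (Adcy5 in both, the 2 comparisons sharing the nontransgenic libraries), against 8.16% and 6.23%. For the interaction it was 1 of 9 (Adcy5), against 8.54%. The median log2 difference of the 9 genes from nontransgenic was -0.0046 (MYBPC3 deletion), -0.035 (HRC variant) and 0.08 (compound). It was 0.16 between the compound and MYBPC3 deletion groups, 0.29 between the compound and HRC variant groups, and 0.31 for the interaction. In the same order, the medians of all genes tested were -0.0050, 0.0047, -0.0019, 0.014, -0.01 and -0.014. These medians come from the same libraries and were not tested.

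**Figure D2:**
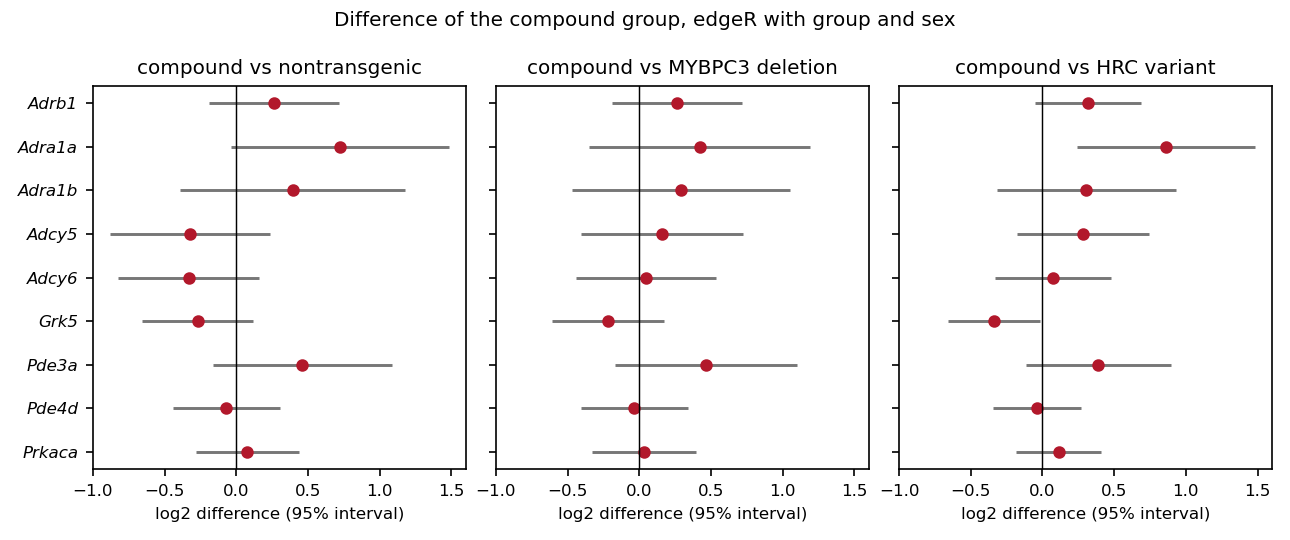
Log2 difference of the compound group from each other group (horizontal axes) for the 9 genes, from edgeR with group and sex; points are estimates and lines their 95% intervals. The intervals of Adra1a (0.24 to 1.48) and Grk5 (-0.66 to -0.02) against the HRC variant do not reach 0, before adjustment over all genes.

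The authors' deposited table called some of these genes. Its q-value for compound against nontransgenic mice was 0.00382 for Adra1a, with a log2 fold change of 0.90 in the authors' deposited table, and 0.0166 for Pde3a, with 0.59. That made 2 of 9 at a q under 0.05, against 2.43% of the 16747 genes with a q-value in the authors' deposited table. Adrb1 (q = 0.0957) and Adra1b (q = 0.139) were not called in the authors' deposited table. It called none of the 9 genes in its other comparisons, where the smallest value was 0.0760 for Pde3a between the MYBPC3 deletion and compound groups. The share of all genes called in those other comparisons was not computed, so that absence cannot be set against all genes. DESeq2 fitted here to those 2 groups alone, without a sex term, also called Adra1a (adjusted p = 0.00349) and Pde3a (adjusted p = 0.0147), 2 of 9 against 3.44% of genes. With all 12 libraries in the fit and no sex term, DESeq2 called 0 of 9, against 1.10% of genes, with an adjusted p of 0.107 for Adra1a. The fold changes of both DESeq2 fits without a sex term compare 3 females with 1 female and 2 males, so sex and group cannot be told apart in them. The authors' calls for this comparison rest on the same compound and nontransgenic samples. No source used here states whether sex was a term in the authors' fit.

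Sex could be estimated only in the nontransgenic and MYBPC3 deletion groups, from 4 males and 2 females. The fitted male minus female log2 difference was -0.79 for Adcy6 (SE 0.19, unadjusted p = 0.00124, edgeR adjusted p = 0.300), -0.60 for Adcy5 (SE 0.22), -0.42 for Grk5 (SE 0.15) and -0.40 for Adrb1 (SE 0.18). These were the 4 of 9 with an unadjusted p under 0.05, against 14.3% of all genes, and 0 of 9 passed adjustment, against 0.0578%. The males include both libraries lowest in long transcripts, nontransgenic replicate 1 and MYBPC3 deletion replicate 2. Those were the lowest 2 libraries for Adrb1, Adcy5, Grk5 and Pde4d, and 1 of the lowest 2 for Adra1a, Adra1b, Adcy6 and Pde3a. Prkaca was highest in MYBPC3 deletion replicate 2. The part of long-transcript loss in the sex difference was not tested.

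**Figure D3:**
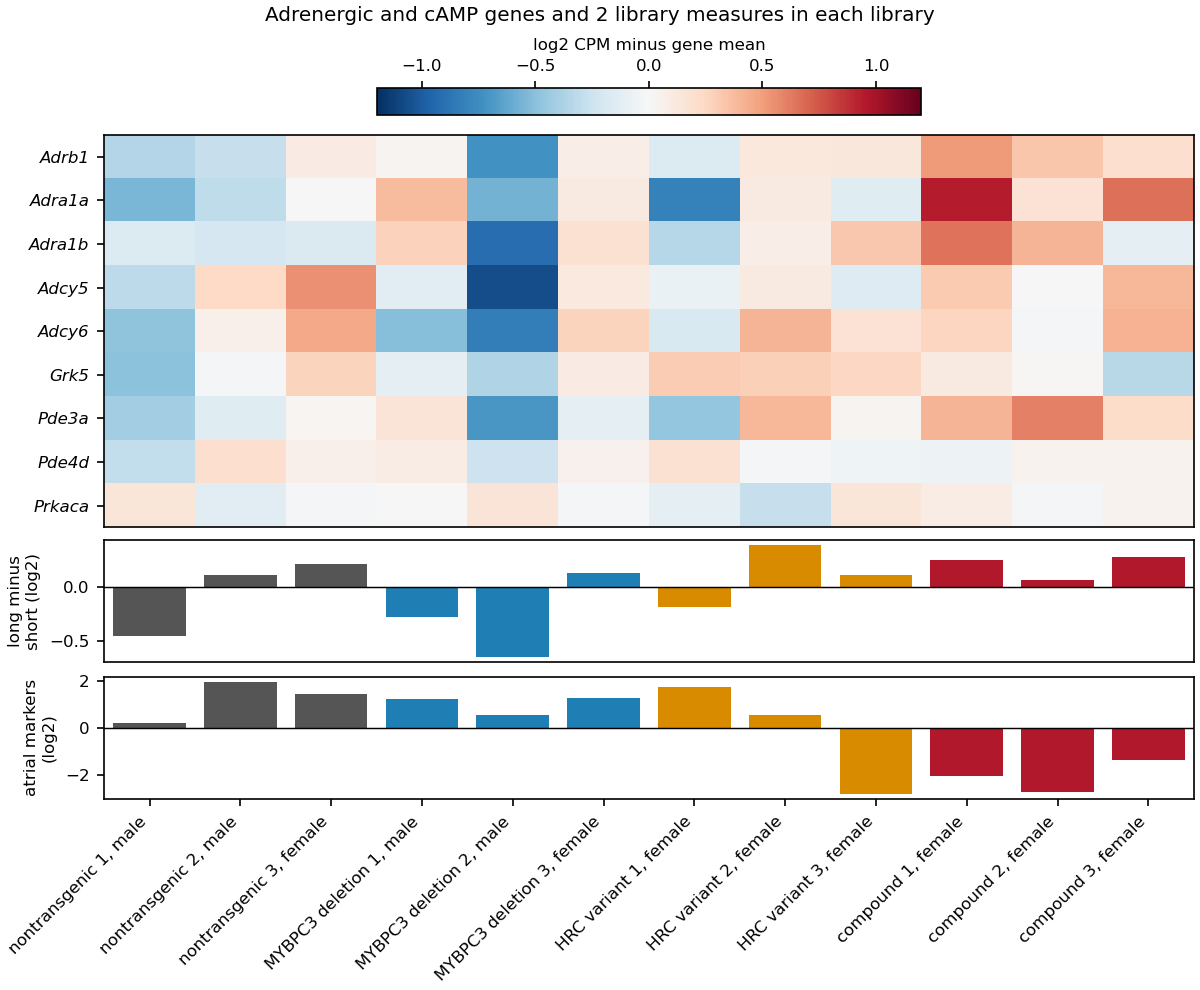
Log2 CPM of each gene less its mean over 12 libraries (colours), above the long minus short transcript measure and the mean log2 deviation of the atrial markers in the same libraries (bars). MYBPC3 deletion replicate 2 is low in 8 of the 9 genes and has the lowest long minus short value, -0.65; the compound libraries and HRC variant replicate 3 have atrial values of -1.35 to -2.78.

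Pearson's r of log2 CPM between members is given as a description with no test. Over all 36 pairs of the 9 genes it ran from -0.65 to 0.89 over 12 libraries, with a median of 0.48. Over the 10 libraries without nontransgenic replicate 1 and MYBPC3 deletion replicate 2 it ran from -0.85 to 0.79, with a median of 0.05. Adrb1, Adra1a, Adra1b and Pde3a, none of which passed the test, were picked for not overlapping between compound and nontransgenic libraries. Their 6 pairs had r of 0.70 to 0.89 over 12 libraries and 0.65 to 0.79 over 10, and share that group pattern and the libraries. Adrb1 had r = 0.74 with Adcy5 and 0.73 with Adcy6 over 12 libraries, and 0.20 and 0.33 over 10. Adcy5 and Adcy6 had r = 0.87 over 12 libraries and 0.71 over 10. Adrb1 and Pde4d went from 0.34 over 12 libraries to -0.85 over 10.

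The genes most like each member were found over all tested genes by the same r over 12 libraries. For Adrb1 they were Kcnj11 (r = 0.96), the pore of the heart's ATP-sensitive potassium channel, Lclat1 (0.94) and Drosha (0.94). For Adra1a they were Ttc30b (0.92), Trim63 (0.91), a ubiquitin ligase of muscle also called MuRF1, and Acadsb (0.91). For Adra1b they were Lpcat3 (0.94), Lclat1 (0.91) and Trim68 (0.91). Adcy5 was most like Irgq (0.97), Kalrn (0.96) and Akap13 (0.95), an anchoring protein of protein kinase A. Adcy6 was most like Exoc4 (0.98), D5Ertd579e (0.98) and Tulp4 (0.97), and Grk5 like Fn3krp (0.97), Fzd3 (0.91) and Add3 (0.89). Pde3a was most like Ppm1k (0.95), Cdh2 (0.94) and Klhl41 (0.93), Pde4d like Smad9 (0.92), Grip1 (0.89) and Tnfrsf19 (0.87), and Prkaca like Fbxw4 (0.93), Mrps30 (0.91) and Akt1s1 (0.90). All these r are high by choice, as the largest found for each member. Over the 10 libraries without nontransgenic replicate 1 and MYBPC3 deletion replicate 2, they ran from 0.76 (Pde4d with Smad9) to 0.97 (Adcy6 with Exoc4).

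Levels of different genes were compared per transcript length, as the deposited TPM, a length-corrected share of each library's transcripts. Prkaca was highest, with a median of 277 TPM over 12 libraries, followed by Adcy6 (54.9 TPM), Adcy5 (34.6), Adra1b (33.2), Adrb1 (26.8), Grk5 (21.7), Pde3a (14.2), Pde4d (12.8) and Adra1a (6.81). Adcy5 and Adra1b were not separated in TPM, since Adcy5 was the higher in 5 of 12 libraries, and Pde3a was above Pde4d in 8 of 12. Every other neighbour in this order held its place in 10 to 12 of the 12 libraries.

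The TPM also showed which form of a gene family was most abundant. Adra1b made up 67.8% to 78.2% of 3 alpha-1 receptors, Adra1a 10.8% to 23.2%, and the 3 alpha-2 receptors stayed at or below 1.15 TPM. Adcy6 had a median share of 41.4% and Adcy5 of 26.5% of 9 membrane cyclases, ahead of Adcy4 at 15.2% and Adcy9 at 9.24%. Among 5 receptor kinases Grk5 had a median share of 21.1%, below Grk2 with 48.8%. Pde4a, at a median of 60.1 TPM, was above both Pde3a and Pde4d and above Pde4b (17.1 TPM), while Pde3b had 2.67 TPM. Prkaca made up 87.1% to 93.1% of the catalytic subunits' TPM, the rest being Prkacb, and Prkar1a, with a median of 221 TPM, led the regulatory subunits.

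**Figure D4:**
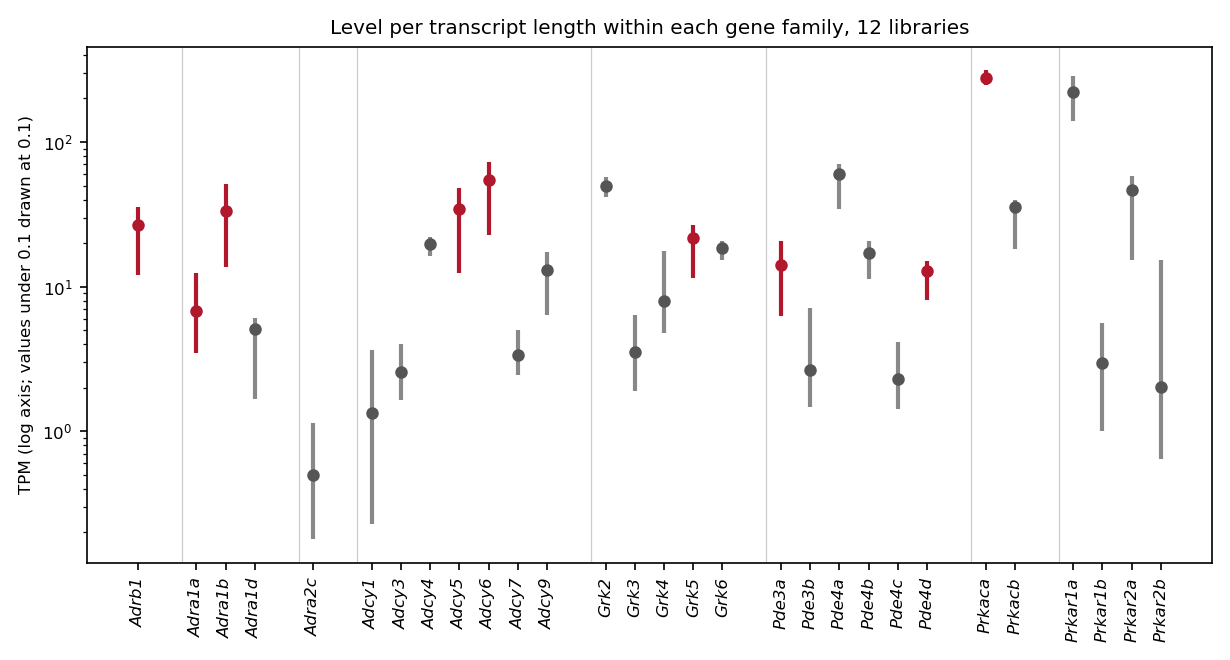
TPM on a log axis, by family, for the 9 genes (red) and other genes above 1 TPM in any library (grey). The grey genes are paralogs of 8 of the 9, with none drawn for Adrb1, and the regulatory subunits of protein kinase A. Points are medians over 12 libraries and lines run from the lowest to the highest library. Prkaca (median 277 TPM) is the highest of the 9 and Adra1a (6.81 TPM) the lowest.

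Ratios of TPM within a library, picked after the values were seen and so given with no test, set these genes against each other. Grk5 over Adrb1 was 0.628, 0.660 and 0.573 in the compound libraries and 0.772 to 1.07 in the other 9, which do not overlap them. Pde3a over Pde4d was 1.67, 1.62 and 1.46 in the compound libraries. That ratio was 0.936 to 1.12 in the nontransgenic libraries, 0.737 to 1.09 with the MYBPC3 deletion, and 0.689, 1.56 and 1.19 with the HRC variant, so only the HRC variant group reached the compound range. Adcy5 over Adcy6 was 0.632 to 0.660 in the compound group and 0.509 to 0.836 over the other 9 libraries. Adra1a over Adra1b, Adrb1 over Adra1b and Grk5 over Grk2 were also computed, and each overlapped between the compound and other libraries. The share of gene pairs separated like Grk5 and Adrb1 was not computed.

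**Figure D5:**
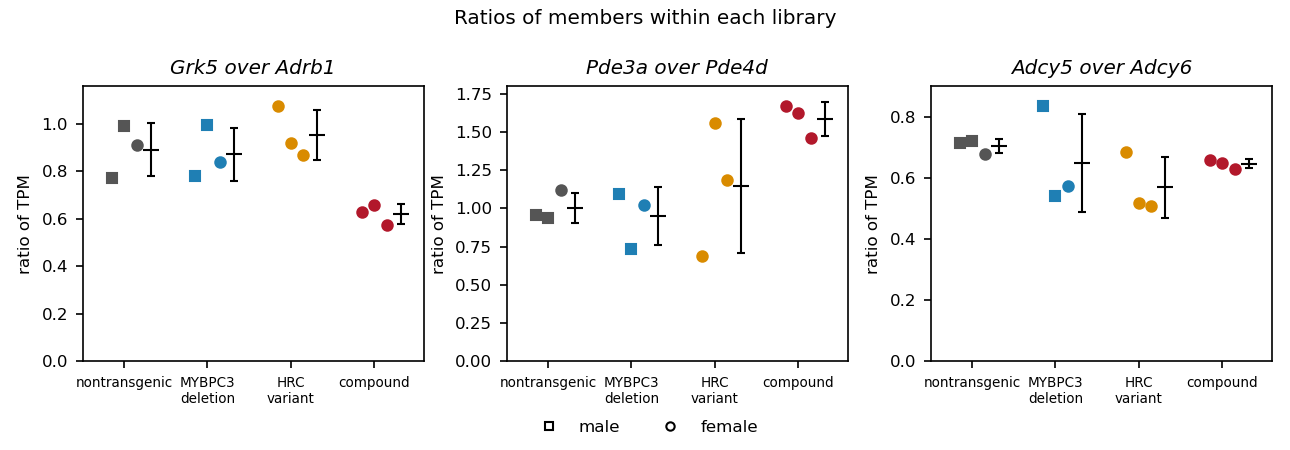
Ratio of TPM within each library (vertical axes from 0) for 3 pairs of genes, by group, squares for males and circles for females; bars are group means with SD (n = 3). Grk5 over Adrb1 is 0.573 to 0.660 in the compound libraries and at least 0.772 in all others. The pairs were picked after the values were seen.

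Of 103 other genes listed for the pathway, 101 were tested and 0 passed in any of the 6 comparisons with edgeR. An unadjusted p under 0.05 was found for 7 of 101 with the MYBPC3 deletion (8.16% of all genes), 3 with the HRC variant (6.23%), 9 between the compound and MYBPC3 deletion groups (5.73%), 5 between the compound and HRC variant groups (6.30%) and 9 for the interaction (8.54%). Between compound and nontransgenic mice, 3 of 101 were higher and 8 lower at an unadjusted p under 0.05, against 296 higher and 585 lower of 13849 genes (6.36%). The smallest p belonged to Gng2, a G protein gamma subunit, with a log2 difference of -2.35 (SE 0.65, edgeR adjusted p = 0.630). Next came Rrad, which encodes an inhibitor of the L-type calcium channel that protein kinase A relieves, with 0.44 (SE 0.15, edgeR adjusted p = 0.662), and the cyclase Adcy1 with -2.45 (SE 0.83, edgeR adjusted p = 0.672).

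The levels of these genes across libraries differed in kind. Rrad had 239, 235 and 229 CPM in the compound libraries and 162 to 194 CPM in the other 9, with no overlap. The share of genes above all 9 was not computed. Of the 101 pathway genes, 16 were higher without overlap in the compound group than in nontransgenic mice (8.79% of all genes). Against the MYBPC3 deletion it was 20 (11.5%), and against the HRC variant 4 (6.20%). In the same order, 9, 13 and 8 were lower without overlap. The share of all genes was 6.22% for the last. It was not computed for the others, so those counts cannot be set against all genes. Gng2 had 6.79 to 8.11 CPM in the compound libraries and 7.49 CPM in HRC variant replicate 3, against 16.8 to 48.6 CPM in the other 8. Adcy1 had 3.42 to 4.26 CPM in the compound libraries and 1.66 CPM in HRC variant replicate 3, against 5.39 to 25.5 CPM elsewhere. Gng2 and Adcy1 were thus low in the same 4 libraries that were low in atrial markers, and the part of atrial content in those differences was not tested.

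In the other comparisons the genes with the smallest p were again not past adjustment. With the MYBPC3 deletion they were Rapgef3, which encodes the cyclic AMP sensor Epac1, with a log2 difference of -0.62 (SE 0.13, edgeR adjusted p = 0.340), Mybpc3 with -0.60 and Grk4 with -1.13. With the HRC variant they were the clock gene Per1 with -1.28 (SE 0.37, edgeR adjusted p = 0.605), Gnaq with 0.30 and Gnb4 with 0.40. Between the compound and MYBPC3 deletion groups they were Gng2 with -2.10, Mybpc3 with 0.59 and Rapgef3 with 0.45. Between the compound and HRC variant groups they were Nr4a3, an early gene that cyclic AMP induces, with -1.68 (SE 0.33, edgeR adjusted p = 0.306), Rrad with 0.48 and Pde1c with 0.33. For the interaction they were Pde1c with 0.64, Mybpc3 with 0.75 and Nr4a3 with -1.36.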

How the data were processed

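Per the submitters' processing notes, HISAT, Bowtie2, DESeq2 and GRCm38.p6 were used; no role, version or annotation is given in those sources. The authors deposited 1 table with an expected count, a TPM value and an FPKM value per gene and library. FPKM served here only to derive transcript lengths. Per the file headers, the table also held log2 ratios between groups and q-values, both computed by the authors. Expected counts were rounded to whole numbers and fitted with edgeR 4.0.16 in R 4.3.3. The low-count filter used a minimum count of 10 and removed 3530 genes. The fit had 7 residual degrees of freedom and a common biological coefficient of variation of 21.5%. DESeq2 1.42.0 and limma 3.58.1 served as alternatives, and the edgeR scripts were tested on simulated data. Coordinates are those of the deposited table; strands are from GENCODE M21, because the deposited strand differs for Adra1b and Adcy6. Transcript lengths are those implied by the deposited FPKM and counts. Likeness used log2 CPM with a prior count of 2 and left out predicted, clone-named and sex-linked genes. All 9 genes were named in every comparison, with pathway genes named by the 3 smallest p in each. Paralogs and regulatory subunits of protein kinase A were named by level. The genes, lists and tests were chosen with earlier results of these data known. Paralogs of Adrb1 are not reported here.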

Additional observations from a re-analysis of the deposited data

How the results depend on the processing

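edgeR called 0 of the 9 genes in every comparison under every alternative, as did DESeq2 with all 12 libraries and limma-voom. The exception was DESeq2 with only the groups compared and no sex term, added after seeing the data, which called 2 of 9 (Adra1a and Pde3a) between compound and nontransgenic mice. Numbers called over all genes are given below for some of these alternatives only, and not for limma-voom. Where none is given, 0 of 9 cannot be set against all genes. Counts below are in the order MYBPC3 deletion, HRC variant and compound against nontransgenic, compound against MYBPC3 deletion and against HRC variant, and interaction. Over all genes, DESeq2 with group and sex called 76, 25, 38, 6, 43 and 50; without the sex term (added after seeing the data) it called 41, 22, 153, 232, 35 and 13. DESeq2 with only the groups compared and no sex term called 13, 17, 456, 816 and 75. edgeR with only the groups compared called 1, 0, 15, 57 and 0. Among the other pathway genes, DESeq2 with group and sex called 2 for the MYBPC3 deletion, 2 for compound against HRC variant and 1 for the interaction; without the sex term it called 2, 0, 3, 3, 1 and 0. With only the groups compared and no sex term it called 8, 13 and 2 for the 3 compound comparisons, and edgeR with only the groups compared called 2 for compound against MYBPC3 deletion. Leaving out 1 library in turn gave 0 to 8 genes over all genes for the HRC variant (8 without HRC variant replicate 1), 0 to 3 for compound against nontransgenic (3 without HRC variant replicate 3), 0 to 13 for compound against HRC variant (13 without HRC variant replicate 3) and 0 to 5 for the interaction (5 without HRC variant replicate 1). With the replicate block, 1 gene was called for the interaction and 0 in the other comparisons. Of 18 same-numbered pairs of libraries, 5 had correlated deviations above 0.1 (range -0.24 to 0.32). Differently numbered pairs ran from -0.36 to 0.33, so a pairing by number was neither shown nor excluded. Of 42 differences of the 9 genes whose groups overlapped and whose unadjusted p was 0.05 or more, 124 of 1118 recomputed values changed sign, all with a main size of at most 0.40 on the log2 scale. With 3 hearts a group, the 95% intervals in the text are what the depth and spread allow.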
